A study of Homo sapiens with 36 samples.

Results

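Daunorubicin was added to cytarabine in HL60 cells, an established human line of acute myeloid leukemia, and the gene expression changes that came with the second drug were measured. The members are the 3 HL60 libraries labelled with cytarabine and daunorubicin together, called the combination here, set against the 3 HL60 libraries labelled with cytarabine, which makes 6 of the 36 libraries in the series. Combination cells received 0.1 µM cytarabine and 0.02 µM daunorubicin for 24 h, and the cells they were compared with received 0.1 µM cytarabine for the same time, so that cytarabine was shared by both groups. The HL60 libraries treated with 0.02 µM daunorubicin or with the solvent DMSO (3 each), and the 3 combination and 3 cytarabine libraries of MOLM13, another AML line, served for comparison. HL60 is a long-passaged line, so the 3 replicates of a group are samples of that line and not of different patients. The labels call them biological replicates but do not say whether they were treated on separate days. The p-values therefore measure the spread between these samples, which may be technical.

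Cytarabine is a nucleoside analog that is built into DNA and stalls its synthesis. Daunorubicin is an anthracycline that slides between the bases of DNA and traps topoisomerase II on it, and it also disturbs transcription, including that of ribosomal RNA. HL60 cells resemble promyelocytes, with genes for granule proteins such as myeloperoxidase switched on. They are known for a high MYC level through amplification of the gene and for their ability to mature toward granulocytes or monocytes under differentiating agents.

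The estimated counts of the 6 libraries summed to between 30949987 and 37758799 (combination) and between 29427438 and 34085907 (cytarabine). Levels are given as TMM-normalized CPM, which are counts relative to the library's total (CPM), scaled for composition. The labelled line was checked on its markers. The summed CPM of 7 HL60 markers was 1172 to 1593 in combination and 1868 to 2450 in cytarabine libraries, with AZU1 at 0 in all 6, whereas HOXA9, MEIS1, HOXB4 and HOXB6, genes of the other lines used, were at 0 in all 6. The 7 genes of that list summed to 31.2 to 35.3 CPM in combination and 27.6 to 31.9 CPM in cytarabine libraries, and 6 of them were under 1 CPM. The share of counts on retained-intron transcripts, a sign of RNA quality or of incompletely spliced RNA, was 4.82% to 5.80% in combination and 4.58% to 5.71% in cytarabine libraries, and the mitochondrial share was 5.71% to 7.40% in combination and 5.91% to 7.04% in cytarabine libraries. Of the erythroid marker genes 7 of 10 were at 0 in all 6 libraries, and the summed level of the list was 0.303 to 0.835 CPM in combination and 0.493 to 0.640 CPM in cytarabine libraries. The lymphoid list had 264 to 363 CPM in combination and 221 to 352 CPM in cytarabine libraries, with MS4A1, CD3G and TRBC2 at 0 in all 6. The megakaryocyte list had 4.18 to 15.04 CPM in combination and 2.69 to 10.9 CPM in cytarabine libraries, with PF4, PPBP and GP9 at 0 in all 6. In bulk RNA a change in the make-up of the culture and a change in RNA per cell cannot be told apart.

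The first question was which genes differed in expression once daunorubicin was added to cytarabine. Over the 3 same-numbered pairs of libraries, genes of maturing myeloid cells and the cell cycle inhibitor CDKN1A stood higher in the combination, and MYC, genes that build ribosomes and some genes of promyelocyte granules, such as MPO, stood lower. The changes were small: 98.1% of the 15131 genes tested had a log2 fold change between -1 and 1, with 205 genes above and 80 below this range. In the fit of the 6 libraries without the replicate number, edgeR called 0 genes (0.0%) at an adjusted p under 0.05 and a log2 fold change beyond 1, and 0 at that adjusted p alone, with 1098 genes at an unadjusted p under 0.05. The lowest adjusted p was 0.197. DESeq2 called 14 genes (9 higher and 5 lower) and the edgeR exact test 8 (8 higher and 0 lower).

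Libraries with the same replicate number deviated together, so the number was used to pair these samples, which the labels do not state. The deviations from the group means had correlations over genes of 0.427, 0.242 and 0.314 between same-numbered libraries, and of -0.331 to 0.015 between the others. Deviations within a group sum to 0, so positive same-numbered values push the others below 0, and the others are no separate support. With the number as a block, the median standard error fell to 0.10, against 0.18 without it, and edgeR called 57 genes (0.377%), 41 higher and 16 lower. At the adjusted p alone 542 genes passed (3.58%), of which 221 (1.46%) were higher and 321 (2.12%) lower. All adjusted p-values of the combination comparison below come from this blocked fit unless the fit without the block is named. Medians over a list come from the fit without the block. No gene named below for its blocked value passed in that edgeR fit. Over 16 alternative settings, the block among them, CDKN1A, C3, MYC and RGS3 each passed in 4.

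The blocked calls were sensitive to how transcript lengths were handled. With an offset for the average transcript length of each gene, 5 genes were called (3 higher and 2 lower), 7 passed at the adjusted p alone and 252 had an adjusted p under 0.1. Of 55 single genes followed through this offset, S100A9, LGALS1, TNF and FAM83H stayed under an adjusted p of 0.05 (0.0377, 0.0407, 0.0407 and 0.00772), and the others did not pass. TNF and FAM83H had libraries at 0 counts and are given by their levels only below. Combination replicate 2 lay farthest from its counterpart in many of the genes below, and without both replicate 2 libraries 75 genes were called and 430 passed at the adjusted p alone, 326 of them in the same direction as among the 542. Without both replicate 3 libraries 266 passed at the adjusted p alone, 198 of them shared with the 542, and without both replicate 1 libraries 581 passed, 407 of them shared.

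CDKN1A, which encodes p21, an inhibitor of cyclin-dependent kinases, lies on chromosome 6 from 36676460 to 36687337 of GRCh38. It was at 95.4, 111 and 68.7 CPM in combination libraries 1 to 3, against 45.0, 36.8 and 44.1 CPM in cytarabine libraries 1 to 3. Every combination library was above every cytarabine library. The log2 fold change was 1.13 ± 0.15 (SE, adjusted p = 0.0145 from edgeR with the block). Daunorubicin without cytarabine gave 1.95 ± 0.932 CPM and DMSO 0.218 ± 0.145 CPM (SD, n = 3 each).

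Several raised genes belong to the innate immune equipment of granulocytes and monocytes. C3, the central component of complement, was at 39.1, 79.6 and 37.9 CPM in combination libraries, against 18.8, 20.4 and 19.0 CPM in cytarabine libraries. The groups did not overlap, and 808 genes (5.34%) had all combination libraries above all cytarabine libraries. The log2 fold change of C3 was 1.36 ± 0.17 (SE, adjusted p = 0.0130). ITGAM, which encodes CD11b, the integrin chain of complement receptor 3 and the usual marker of HL60 maturation, was at 42.1, 73.8 and 35.6 CPM in the combination, against 22.4, 40.9 and 14.8 CPM with cytarabine. Its groups overlapped, since cytarabine replicate 2 was above combination replicate 3, while each combination library was above its same-numbered cytarabine library (log2 fold change 1.02 ± 0.10, adjusted p = 0.00472, 0.632 without the block).

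**Figure D1:**
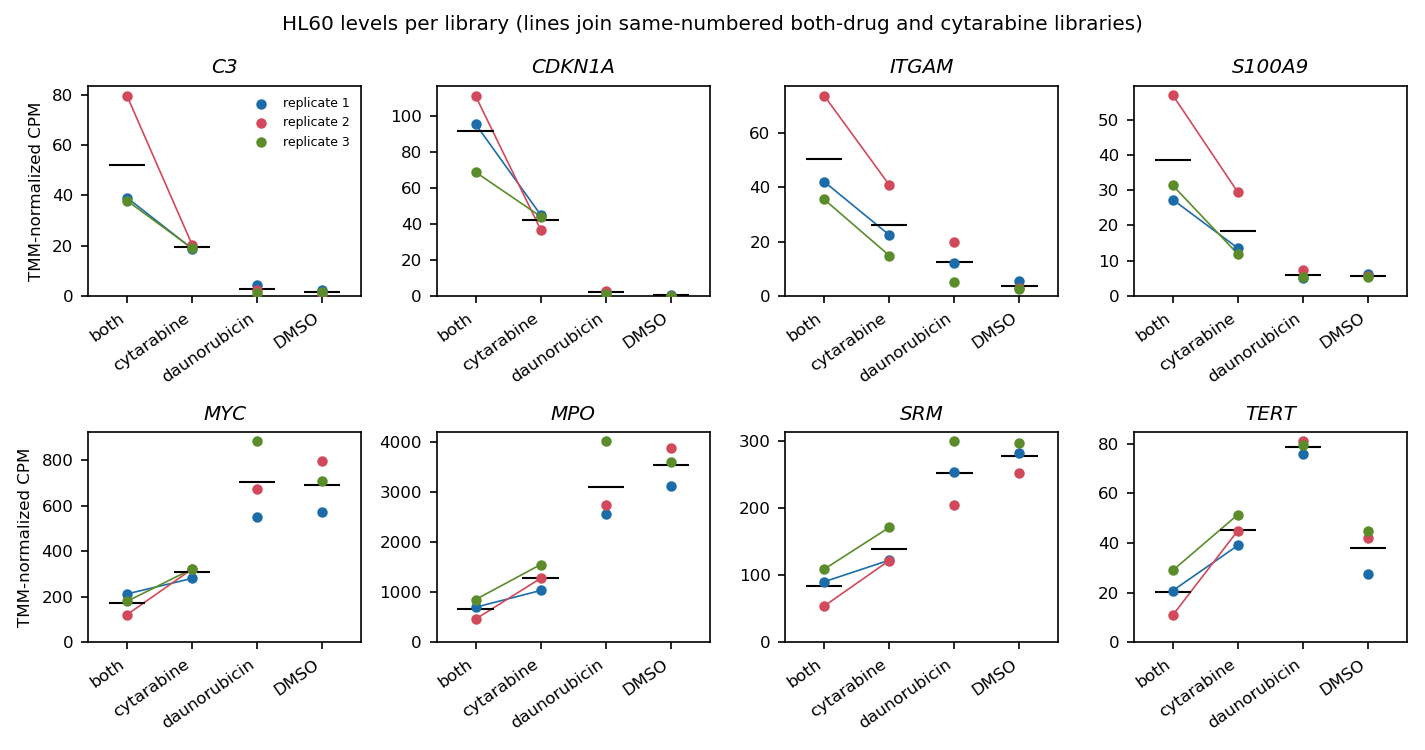
Each panel shows the TMM-normalized CPM of a gene in the 3 HL60 libraries of each treatment, with a black bar for the mean and a line between same-numbered libraries of the combination (both drugs) and cytarabine. C3, CDKN1A, ITGAM and S100A9 were higher in all 3 pairs, and MYC, MPO, SRM and TERT were lower in all 3 pairs.

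ITGAX, the sister integrin chain CD11c, and CR1, complement receptor 1, behaved like ITGAM. ITGAX was at 13.5, 21.2 and 6.20 CPM in the combination, against 8.77, 10.3 and 2.40 CPM with cytarabine (log2 fold change 1.00 ± 0.16, adjusted p = 0.0181). CR1 was at 16.9, 55.8 and 13.7 CPM in the combination, against 12.1, 28.2 and 3.81 CPM with cytarabine (1.07 ± 0.20, adjusted p = 0.025). In both genes the groups overlapped and each combination library was above its same-numbered cytarabine library. JAML, an adhesion molecule of leukocytes, had groups that did not overlap, with 9.68, 11.9 and 8.67 CPM in the combination, against 5.59, 5.68 and 3.30 CPM with cytarabine (1.10 ± 0.16, adjusted p = 0.0146). Of the 24 leukocyte adhesion genes tested, 5 rose and 0 fell, beside 1.46% higher and 2.12% lower over all genes. The 5 were the integrin and adhesion genes ITGAM, ITGAX and JAML, and ITGB7 and F11R. The median log2 fold change of the list was 0.11.

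S100A8 and S100A9 encode the partners of calprotectin, a calcium-binding protein that neutrophils and monocytes store in bulk. S100A9 was at 27.3, 57.0 and 31.4 CPM in the combination, against 13.5, 29.4 and 11.8 CPM with cytarabine (log2 fold change 1.14 ± 0.10, adjusted p = 0.00472). S100A8 was at 3.88, 8.52 and 4.30 CPM in the combination, against 1.31, 3.16 and 2.10 CPM with cytarabine (1.36 ± 0.19, adjusted p = 0.0145). Both genes were higher in all 3 pairs, and the S100A8 groups did not overlap. In daunorubicin libraries S100A9 averaged 5.90 ± 1.203 CPM, close to 5.69 ± 0.571 CPM with DMSO (SD, n = 3 each). NCF1, a cytosolic subunit of the phagocyte NADPH oxidase, was at 340, 688 and 239 CPM in the combination, against 186, 254 and 160 CPM with cytarabine (0.98 ± 0.14, adjusted p = 0.0145). NCF1 has near-identical copies, NCF1B and NCF1C, among which the counting can split reads. It was the 1 of 9 oxidase genes tested that passed, beside 3.58% of all genes.

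Markers of the monocyte and macrophage surface leaned the same way as a list. Of 31 genes, 18 passed the filter on low counts, with a median log2 fold change of 0.56. Of these 18, 13 were higher in all 3 pairs and 3 were lower in all 3 pairs, beside 19.5% and 23.9% of all genes tested. The log2 fold change was positive in 15 of the 18 and negative in 3, down to -0.54. CD68, a lysosomal protein of macrophages, was at 4.71, 9.21 and 4.81 CPM in the combination, against 1.71, 5.40 and 1.98 CPM with cytarabine (1.17 ± 0.19, adjusted p = 0.0196). TREM1, an amplifier of inflammatory signals, was at 6.36, 6.16 and 2.47 CPM in the combination, against 3.12, 2.61 and 1.23 CPM with cytarabine (1.11 ± 0.18, adjusted p = 0.0196). These 2 genes overlapped between the groups and were higher in each pair. FCGR2A, an activating Fc receptor, did not overlap, with 26.9, 28.9 and 23.3 CPM in the combination, against 22.3, 16.4 and 15.7 CPM with cytarabine (0.57 ± 0.11, adjusted p = 0.0329). ADGRE5 was the 4th of the list to pass as higher, and 0 passed as lower, beside 1.46% higher and 2.12% lower over all genes.

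Further raised genes serve in the same cells. LGALS1, the sugar-binding protein galectin-1, was at 93.0, 116 and 49.8 CPM in the combination, against 55.0, 48.01 and 25.01 CPM with cytarabine (log2 fold change 1.03 ± 0.11, adjusted p = 0.00661). ALOX5AP, which activates 5-lipoxygenase for leukotriene synthesis, was at 218, 248.7 and 136 CPM in the combination, against 146, 148 and 87.8 CPM with cytarabine (0.67 ± 0.08, adjusted p = 0.00898). Replicate 3 was the lowest of its group in both genes and under both treatments. TYROBP, the DAP12 signaling adaptor, and SERPINA1, which encodes alpha-1-antitrypsin, had log2 fold changes of 0.58 and 0.82 (adjusted p = 0.0145 and 0.0153).

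The remaining called genes of the naming rule have other roles. ID1, an inhibitor of basic helix-loop-helix transcription factors, was at 11.3, 5.42 and 4.43 CPM in the combination, against 3.42, 1.67 and 2.28 CPM with cytarabine (1.48 ± 0.20, adjusted p = 0.0145). RGS3, which shortens G protein signals, was at 16.5, 16.7 and 13.4 CPM in the combination, against 7.36, 5.95 and 8.85 CPM with cytarabine (1.10 ± 0.17, adjusted p = 0.0164). Neither gene overlapped between the groups. CDK18, EBF4 and ARHGAP31, a cyclin-dependent kinase relative, a transcription factor and a GTPase-activating protein, had log2 fold changes of 1.33, 1.13 and 1.24 (adjusted p = 0.0131, 0.0167 and 0.029), also with no overlap.

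Of the interferon-stimulated genes tested, 4 of 29 rose and 1 fell, beside 1.46% higher and 2.12% lower over all genes. The median log2 fold change was 0.26. IFI6, an antiviral membrane protein, was at 22.3, 26.4 and 16.2 CPM in the combination, against 14.1, 16.3 and 10.5 CPM with cytarabine (0.68 ± 0.09, adjusted p = 0.0145). OAS3, a sensor of double-stranded RNA, STAT2, a transcription factor of the interferon response, and MX2 had log2 fold changes of 0.56, 0.50 and 0.56 (adjusted p = 0.025, 0.0277 and 0.0422). IFITM2 had -0.42 (adjusted p = 0.0462). In the blocked edgeR fit 0 of 23 NF-kB regulators and 0 of 13 chemokine ligands tested passed, beside 3.58% of all genes. Of 30 AP-1 and immediate early genes tested 1 rose, beside 1.46% of all genes. Lists this short would show such counts at the shares over all genes, so nothing is read from them. The AP-1 list had pair medians of 0.18, 0.62 and -0.19 in pairs 1 to 3.

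MYC, a transcription factor that drives ribosome and nucleotide synthesis, was at 212, 121 and 180 CPM in combination libraries, against 281, 322 and 322 CPM in cytarabine libraries, and DMSO libraries averaged 692 ± 113 CPM (SD, n = 3). All combination libraries were below all cytarabine libraries, as for 1116 genes (7.38%). The log2 fold change was -0.86 ± 0.15 (adjusted p = 0.0219). Daunorubicin without cytarabine left the mean at 702 ± 169 CPM. MXD3, a partner of MAX that opposes MYC, rose, with 76.4, 65.5 and 48.8 CPM in the combination, against 53.4, 35.5 and 35.9 CPM with cytarabine (0.63 ± 0.10, adjusted p = 0.0189). Its groups overlapped and its value was higher in each pair. Of the 11 MYC network genes tested, 1 rose and 1 fell, beside 1.46% higher and 2.12% lower over all genes. The list had 5 positive and 6 negative log2 fold changes with a median of -0.06.

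Genes of ribosome biogenesis and RNA polymerase I had 1 direction throughout. All 27 tested had a negative log2 fold change, between -0.65 and -0.04 with a median of -0.39 in the fit without the block (median -0.40 with it), and 25 of 27 were lower in all 3 pairs (23.9% of all genes tested were). In the blocked test 13 of 27 fell and 0 rose, beside 2.12% lower and 1.46% higher over all genes. DDX21, an RNA helicase of the nucleolus, was at 181, 172 and 262 CPM in the combination, against 276, 320 and 350 CPM with cytarabine (-0.62 ± 0.09, adjusted p = 0.0164). NOP16, a nucleolar protein of the large ribosomal subunit's assembly, was at 37.5, 21.1 and 40.0 CPM in the combination, against 48.7, 50.03 and 57.8 CPM with cytarabine (-0.69 ± 0.14, adjusted p = 0.0337). POLR1B, the second-largest subunit of RNA polymerase I, was at 27.6, 22.9 and 43.3 CPM in the combination, against 34.3, 52.7 and 58.5 CPM with cytarabine (-0.63 ± 0.15, adjusted p = 0.0485). DDX21 and NOP16 did not overlap between the groups, whereas POLR1B did. NCL, the nucleolin gene, did not pass, at 554 ± 148 CPM in the combination and 714 ± 79.3 CPM with cytarabine (-0.37 ± 0.12, adjusted p = 0.11). The size of the difference varied between the pairs, with list medians of -0.28, -0.65 and -0.34 in pairs 1 to 3. The list was also lower in daunorubicin libraries than in DMSO libraries, with a median of -0.37. There 10 of 27 fell and 0 rose, beside 9.14% lower and 12.8% higher over all genes. The daunorubicin effect with cytarabine differed from that without it in 0 of 27 genes, beside 5.14% of all genes. With the block it differed in 1 of 27, downward, beside 1668 of 15608 genes downward and 1143 upward. These counts do not show that the effects were equal.

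**Figure D2:**
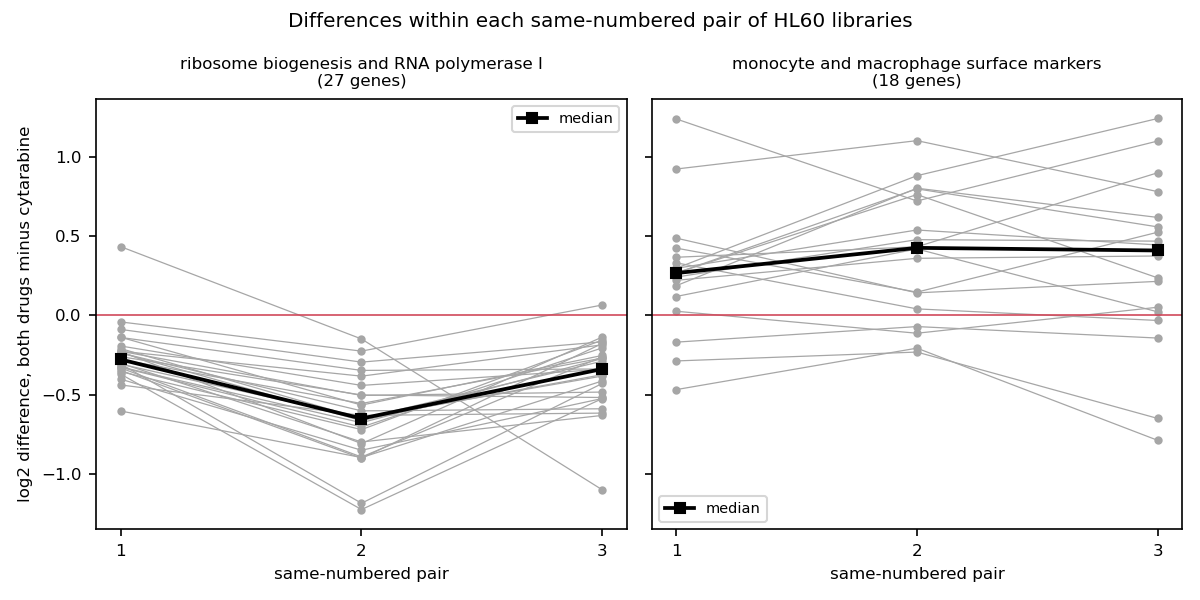
Grey lines give the log2 difference in CPM (with 0.5 added) between the combination and cytarabine library of each number for single genes, and black squares give the list median. The medians of the 27 ribosome biogenesis genes were -0.28, -0.65 and -0.34 and those of the 18 monocyte and macrophage surface genes 0.27, 0.42 and 0.41 in pairs 1 to 3.

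Genes that supply growing cells fell with them in smaller numbers, given here beside 2.12% lower and 1.46% higher over all genes. SRM, which makes the polyamine spermidine, was at 90.3, 54.0 and 109 CPM in the combination, against 122, 122 and 171 CPM with cytarabine (log2 fold change -0.73 ± 0.12, adjusted p = 0.0196). NME1, a nucleoside diphosphate kinase, was at 147, 77.9 and 145 CPM in the combination, against 192, 159 and 235 CPM with cytarabine (-0.68 ± 0.11, adjusted p = 0.0192). Neither gene overlapped between the groups, and combination replicate 2 was the lowest library for both. Of the nucleotide synthesis enzymes tested, 4 of 27 fell and 0 rose (median -0.18), among them PFAS of the purine pathway with 64.0, 54.6 and 68.1 CPM in the combination, against 85.7, 97.0 and 90.8 CPM with cytarabine (-0.54 ± 0.10, adjusted p = 0.0248). Of the chaperones, 5 of 23 fell and 0 rose (median -0.24), among them the HSP90 co-chaperone FKBP4 (-0.64 ± 0.10, adjusted p = 0.0192). FASN, the fatty acid synthase, was at 274, 196 and 332 CPM in the combination, against 372, 513 and 474 CPM with cytarabine (-0.76 ± 0.15, adjusted p = 0.033). It was 1 of 2 of the 25 tested genes of cholesterol and fatty acid synthesis that fell, and 0 rose. None of the 27 proteasome genes tested passed in the blocked edgeR fit, although 23 had a negative log2 fold change (median -0.15).

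The promoters of these genes are shown because members of the lowered group shared a motif that the test did not use. CACGTG, the E-box that MYC-MAX and related factors bind, was searched on the 300 bases from 250 before to 50 after the start (RefSeq, GRCh38.p14), in genes with a single listed start. It reads the same on both strands. It was present in 59 of 183 promoters of the lowered protein-coding genes (32.2%), in 5 of 110 of the raised genes (4.55%), in 731 of 6850 of all tested protein-coding genes (10.7%) and in 7.28% of all such promoters in the table. Among the ribosome biogenesis genes tested it was in 7 of 16. With every listed start of a gene counted, it was in 86 of 246 lowered and 10 of 151 raised genes (6.62%) and in 12.8% of all tested genes. The motif was chosen after the genes were known, and a match is a description of letters, not a site. Below are the promoters of SRM, chr1:11059969-11060268 (minus strand), and NME1, chr17:51153309-51153608 (plus strand), 5′ to 3′ with the E-box in capitals.
SRM: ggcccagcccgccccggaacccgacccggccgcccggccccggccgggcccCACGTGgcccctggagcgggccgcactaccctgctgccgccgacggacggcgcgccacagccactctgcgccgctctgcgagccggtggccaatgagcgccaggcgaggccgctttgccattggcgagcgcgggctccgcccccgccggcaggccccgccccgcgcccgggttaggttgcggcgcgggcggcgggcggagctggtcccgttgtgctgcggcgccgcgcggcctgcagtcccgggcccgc
NME1: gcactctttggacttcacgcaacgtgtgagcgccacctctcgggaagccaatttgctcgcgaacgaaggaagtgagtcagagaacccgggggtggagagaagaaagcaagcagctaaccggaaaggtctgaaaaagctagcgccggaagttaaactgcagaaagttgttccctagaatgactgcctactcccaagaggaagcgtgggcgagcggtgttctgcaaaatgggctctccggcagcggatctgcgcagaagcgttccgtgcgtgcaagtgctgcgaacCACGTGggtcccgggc

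A motif of the raised group was GAGGAA, the purine-rich core that the myeloid factor PU.1 binds, searched on both strands in the same windows. Matches to the 2 motifs can share at most 1 base. It was present in 45 of 110 promoters of the raised protein-coding genes (40.9%), in 42 of 183 of the lowered genes (23.0%), in 27.2% of all tested protein-coding genes and in 27.5% of all such promoters in the table. Of the monocyte and macrophage surface genes tested, 11 of 12 held it. With every listed start counted, it was in 75 of 151 raised genes (49.7%), 82 of 246 lowered genes (33.3%) and 34.4% of all tested genes. This motif was likewise chosen after the genes were known. The promoters of ITGAM, chr16:31259725-31260024 (plus strand), and S100A9, chr1:153357604-153357903 (plus strand), are given with the motif in capitals, as TTCCTC where it lies on the other strand.
ITGAM: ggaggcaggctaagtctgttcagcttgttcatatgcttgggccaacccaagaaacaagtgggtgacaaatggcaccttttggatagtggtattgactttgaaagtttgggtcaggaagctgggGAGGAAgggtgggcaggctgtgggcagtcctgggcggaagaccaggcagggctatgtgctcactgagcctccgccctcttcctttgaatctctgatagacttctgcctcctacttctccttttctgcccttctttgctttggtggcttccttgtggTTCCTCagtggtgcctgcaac
S100A9: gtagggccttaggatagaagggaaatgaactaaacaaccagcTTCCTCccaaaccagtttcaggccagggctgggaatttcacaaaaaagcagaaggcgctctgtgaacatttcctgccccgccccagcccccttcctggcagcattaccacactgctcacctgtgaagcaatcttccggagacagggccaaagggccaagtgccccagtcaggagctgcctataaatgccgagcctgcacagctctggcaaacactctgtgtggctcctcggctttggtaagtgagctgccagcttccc

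Of 13 promyelocyte granule genes tested, 4 fell and 1 rose, beside 2.12% lower and 1.46% higher over all genes. The list had 9 negative and 4 positive log2 fold changes with a median of -0.41, and 7 genes were lower and 2 higher in all 3 pairs. MPO, myeloperoxidase, was at 699, 463 and 852 CPM in combination libraries, against 1033, 1276 and 1550 CPM in cytarabine libraries (log2 fold change -0.94 ± 0.14, adjusted p = 0.0146). Its groups did not overlap, and the DMSO libraries averaged 3531 ± 378 CPM (SD, n = 3). CTSG, the granule protease cathepsin G, was at 51.5, 37.8 and 86.1 CPM in the combination, against 77.2, 94.0 and 142 CPM with cytarabine (-0.85 ± 0.13, adjusted p = 0.0147). PRG2, the major basic protein of eosinophil granules, was at 862, 461 and 382 CPM in the combination, against 1180, 931 and 687.5 CPM with cytarabine (-0.75 ± 0.10, adjusted p = 0.0145). Both genes overlapped between the groups and were lower in each pair. EPX, the eosinophil peroxidase, fell as well (-0.60 ± 0.07, adjusted p = 0.0130), and MMP9, a gelatinase of more mature granules, rose (0.86 ± 0.18, adjusted p = 0.0363). Of the 20 genes of the list, 13 passed the filter on low counts.

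Among single genes with the largest negative log2 fold changes, TERT, the catalytic subunit of telomerase, was at 20.8, 10.96 and 29.0 CPM in the combination, against 39.0, 45.0 and 51.5 CPM with cytarabine (-1.22 ± 0.19, adjusted p = 0.019). GAL, the neuropeptide galanin, was at 22.8, 13.03 and 34.2 CPM in the combination, against 40.2, 42.2 and 65.6 CPM with cytarabine (-1.12 ± 0.15, adjusted p = 0.0131). Neither overlapped between the groups. RAC3, a small GTPase, was at 11.8, 5.10 and 10.0 CPM in the combination, against 19.6, 16.1 and 21.2 CPM with cytarabine (-1.12 ± 0.16, adjusted p = 0.0145). IGLL1, a surrogate immunoglobulin light chain, was at 6.89, 0.764 and 3.58 CPM in the combination, against 12.5, 8.75 and 9.93 CPM with cytarabine (-1.78 ± 0.38, adjusted p = 0.0379), so that its value rests much on combination replicate 2. FJX1, MZB1, PLD6, ACTL8 and B3GNT7 completed the 9 lowered genes that met the naming rule, with log2 fold changes between -1.56 and -1.05.

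**Figure D3:**
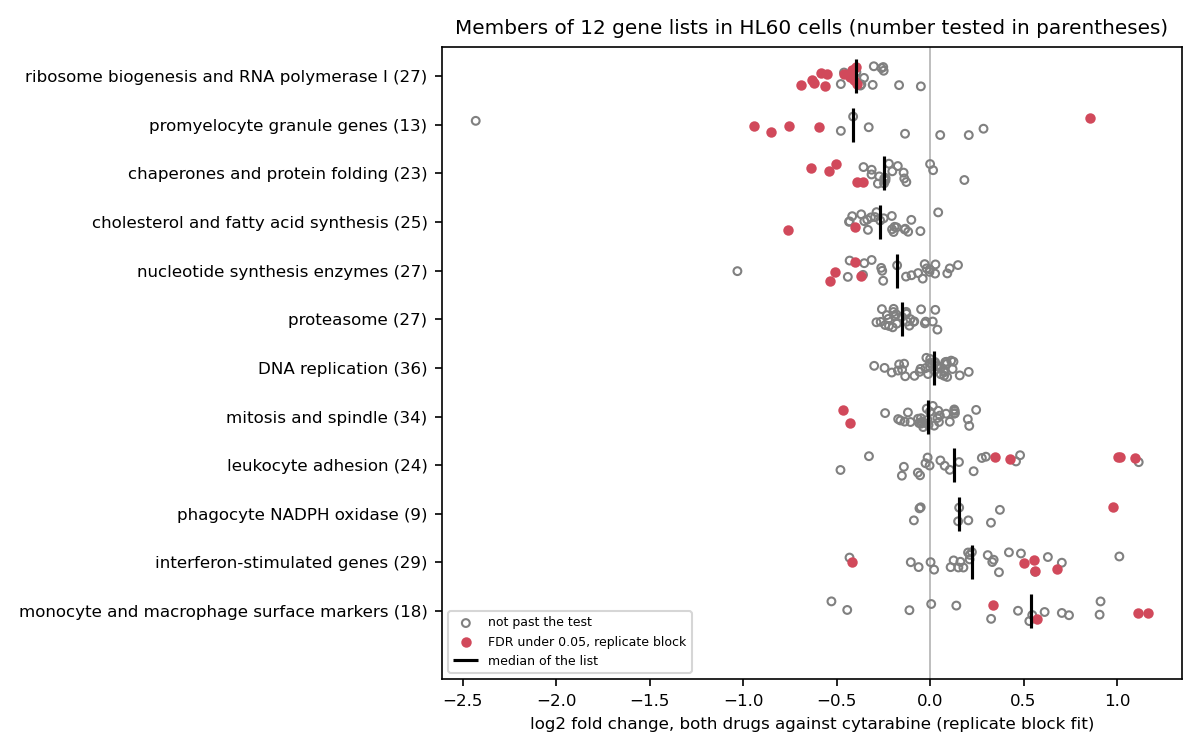
Each point is the log2 fold change of a gene between the combination and cytarabine in the blocked fit, for 12 gene lists with the number of genes tested in parentheses, and the vertical bar is the list median. Filled points passed at an adjusted p under 0.05, which 13 of 27 ribosome biogenesis genes did, all with negative values.

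A few genes with large differences are given by their levels only, since some libraries were at or near 0 counts. TNF was at 1.92, 0 and 0 CPM in the combination, against 54.1, 47.7 and 15.6 CPM with cytarabine, and was listed at 0 in every daunorubicin and DMSO library. KCTD11 was at 1.65, 0.985 and 1.55 CPM in the combination and at 0 in all 3 cytarabine libraries. FAM83H was at 34.9, 34.0 and 3.51 CPM in the combination, against 0.591, 1.61 and 0 CPM with cytarabine. PRTN3, a granule protease, was at 55.5, 0 and 52.9 CPM in the combination, against 88.5, 146 and 155 CPM with cytarabine. Of the transcripts in the files, 16821 had no match in the gene annotation used and held 4.07% to 4.44% of the counts of these 6 libraries, so reads of such genes may sit on copies that were not counted, which was not tested. Without genes at 0 counts in any of the 6 libraries, the blocked fit called 77 genes (50 higher and 27 lower).

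The next question was whether daunorubicin did the same with and without cytarabine. The 6 libraries of daunorubicin and DMSO share none with the comparison above, although libraries of the same number deviate together across all treatments. Of the 221 raised genes, 203 (91.9%) had a positive log2 fold change between daunorubicin and DMSO, against 50.7% of 15115 genes tested in both, and 121 of them passed there at an adjusted p under 0.05 in the same direction, as 12.8% of all genes did (21.9% in either direction). Of the 321 lowered genes, 211 (65.7%) had a negative one, against 49.2% of all, and 57 passed in the same direction, as 9.14% of all genes did. The median daunorubicin effect was 0.91 for the raised and -0.18 for the lowered genes, beside medians of 0.60 and -0.50 in the presence of cytarabine, which are the values they were chosen on. Over 10537 genes at 5 CPM or more in some group, the effects had a Pearson correlation of 0.25 and a Spearman correlation of 0.32, a description across genes that share the same libraries.

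The effect of daunorubicin differed between the presence and the absence of cytarabine in 802 of 15608 genes (5.14%) in a fit of the 12 HL60 libraries, with 194 (1.24%) higher and 608 (3.90%) lower differences. With the replicate number as a block, 2811 genes differed (1143 higher and 1668 lower). Same-numbered libraries correlated by 0.101 to 0.427 over all 6 pairs of HL60 groups. Without a single library, between 343 (without daunorubicin replicate 2) and 1019 (without daunorubicin replicate 3) genes differed, and 8 of the 12 omissions lowered the count by over 1.5 times: DMSO replicates 1, 2 and 3 gave 514, 492 and 368, daunorubicin replicates 1 and 2 gave 368 and 343, cytarabine replicates 2 and 3 gave 510 and 515, and combination replicate 2 gave 503. Both effects enter this test, so the values below are given side by side. For the 608 genes with a lower difference, the median daunorubicin effect was -0.07 with cytarabine and 1.31 without it. For the 194 with a higher difference the medians were 0.06 with cytarabine and -0.64 without it.

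The genes named with large negative differences had higher levels with each drug by itself than with DMSO. CXCR3, a chemokine receptor, was at 14.7, 12.2 and 14.7 CPM in the combination, against 14.3, 14.1 and 12.4 CPM with cytarabine, 8.86 ± 2.45 CPM with daunorubicin and 0.726 ± 0.332 CPM with DMSO (SD, n = 3). The daunorubicin effect was 0.05 with cytarabine and 3.59 without it, a difference of -3.54 ± 0.39 (SE, adjusted p = 0.000805). GPSM1, an activator of G protein signaling, had 23.2 ± 2.67 CPM in the combination, against 20.96 ± 2.91 CPM with cytarabine, 14.1 ± 5.33 CPM with daunorubicin and 1.38 ± 0.102 CPM with DMSO (difference -3.15 ± 0.36, adjusted p = 0.000805). HR, a corepressor of nuclear receptors, had the most negative difference among the genes of the naming rule (-4.57 ± 0.44, adjusted p = 0.000439), with 5.03 ± 0.356 CPM in the combination, against 9.35 ± 2.52 CPM with cytarabine, 4.70 ± 1.71 CPM with daunorubicin and 0.354 ± 0.0869 CPM with DMSO. For HR and PTPRF, a receptor tyrosine phosphatase, the combination was below cytarabine in all 3 pairs (-0.84 and -0.83, adjusted p = 0.0306 and 0.0329). TERT and RAC3 also differed (-2.17 and -1.86, adjusted p = 0.00664 and 0.00646), as daunorubicin without cytarabine raised them to 78.8 ± 2.66 and 30.4 ± 1.5001 CPM, against 38.1 ± 9.35 and 17.3 ± 1.49 CPM with DMSO.

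Positive differences included genes of mitosis, which build the spindle and separate the chromosomes. Of 34 tested, 17 differed upward and 0 downward, against 1.24% upward over all genes. With the block 24 of 34 differed upward and 0 downward, against 1143 of 15608 genes upward. The 34 mitosis genes had a median log2 fold change of 0.00 when daunorubicin was added to cytarabine and -0.55 when given without it. Without cytarabine 26 of 34 fell (9.14% of all genes tested did) and 0 rose. CENPE, a kinesin of the kinetochore, was at 37.1, 48.7 and 48.1 CPM in the combination, against 45.1, 46.6 and 47.7 CPM with cytarabine, and averaged 30.7 ± 4.02 CPM with daunorubicin and 95.2 ± 6.63 CPM with DMSO. The difference was 1.62 ± 0.18 (adjusted p = 0.000805). CENPF, a kinetochore protein, and PSRC1, a spindle protein, had differences of 1.27 and 1.64 (adjusted p = 0.00552 and 0.00137). CDC20, which activates the anaphase-promoting complex, fell also in the presence of cytarabine, with 52.2, 42.6 and 52.3 CPM in the combination, against 63.6, 70.3 and 66.0 CPM with cytarabine (-0.43 ± 0.10, adjusted p = 0.0453), and by more without it (difference 1.09 ± 0.20, adjusted p = 0.00975). PLK1, a mitotic kinase, was the other mitosis gene that fell in the combination (-0.47 ± 0.09, adjusted p = 0.0275). The linker histone genes H1-10 and H1-2 and the core histone gene H2BC12 differed upward by 1.44, 2.41 and 2.04 (adjusted p = 0.00326, 0.0286 and 0.00979), and none of these 3 passed for the combination against cytarabine. The H1-2 difference passed in 12 of 20 settings (adjusted p up to 0.0788).

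**Figure D4:**
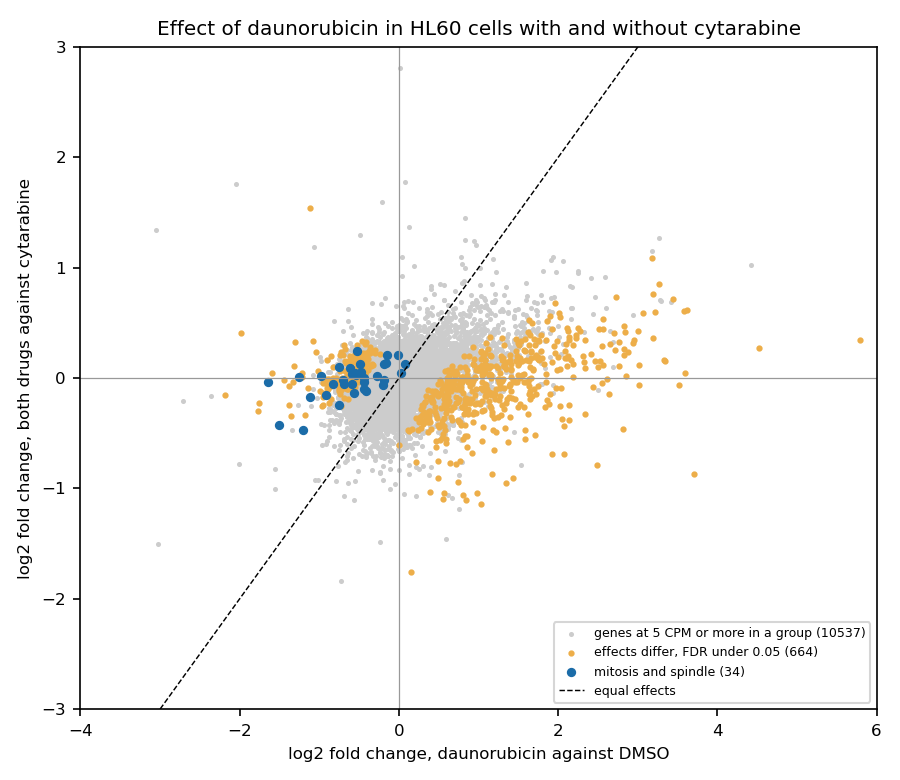
The horizontal axis gives the log2 fold change of daunorubicin against DMSO and the vertical axis that of the combination against cytarabine, for 10537 HL60 genes at 5 CPM or more in a group, of which 9 lie outside the axes. Orange points mark 664 genes whose effects differed at an adjusted p under 0.05, most of them close to 0 on the vertical axis, and blue points mark 34 mitosis genes, whose medians were -0.55 on the horizontal and 0.00 on the vertical axis.

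Last, the same addition was compared with MOLM13 cells. The effect of adding daunorubicin to cytarabine differed between the lines in 423 of 17272 genes (2.45%), with 336 (1.95%) higher and 87 (0.504%) lower in HL60. This number depended on single libraries: it was between 4 and 24 without any 1 of 10 of the 12 libraries (12, 4 and 8 without MOLM13 cytarabine replicate 1, 2 and 3, 7 and 4 without MOLM13 combination replicate 2 and 3, 9, 18 and 24 without HL60 cytarabine replicate 1, 2 and 3, and 5 and 11 without HL60 combination replicate 2 and 3), 332 without HL60 combination replicate 1 and 1951 without MOLM13 combination replicate 1. Over 20 settings, HELLS, MYC, S100A8, H2BC12, ZEB1 and WDR35 each passed in 8 to 10.

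Genes of DNA synthesis, which copy the genome in S phase, were among those that differed. In MOLM13, where the addition changed 13.9% of all genes tested at an adjusted p under 0.05 (5.07% higher and 8.79% lower), all 36 DNA replication genes fell, with a median log2 fold change of -1.71, whereas in HL60 0 of 36 passed in either direction in the blocked edgeR fit and the median was 0.02. The difference itself passed in 8 of 36, all higher in HL60, beside 1.95% higher over all genes. In the blocked HL60 fit 3.58% of all genes passed. PCNA, the sliding clamp of DNA polymerases, had 0.09 in HL60 and -1.07 in MOLM13 (adjusted p of the difference 0.0387), and POLA1, the catalytic subunit of the priming polymerase, had 0.04 in HL60 and -1.88 in MOLM13 (adjusted p of the difference 0.0375). HELLS, a chromatin remodeler of dividing cells, was at 190, 158 and 164 CPM in HL60 combination libraries, against 164, 132 and 132 CPM in HL60 cytarabine libraries, and at 23.7, 7.95 and 13.1 CPM in MOLM13 combination libraries, against 57.5, 75.2 and 82.1 CPM in MOLM13 cytarabine libraries (difference 2.56 ± 0.41, adjusted p = 0.0272). For mitosis genes the medians were 0.00 in HL60 and -1.54 in MOLM13, and 10 of 34 fell in MOLM13. The difference passed in 0 of 34 in edgeR without the block. With the block it passed in 4 of 34, all higher in HL60, beside 1006 of 17272 genes higher.

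MYC differed in the opposite direction. It was at 315, 375 and 369 CPM in MOLM13 combination libraries, against 230, 227 and 286 CPM in MOLM13 cytarabine libraries (0.50 ± 0.17, adjusted p = 0.0664), beside the lower values in HL60 given above, and the difference was -1.32 ± 0.24 (adjusted p = 0.0308). The ribosome biogenesis list had a median of -0.39 in HL60 and 0.01 in MOLM13. In MOLM13 1 of 27 rose and 0 fell, beside 5.07% higher and 8.79% lower over all genes. The difference passed in 1 of 27, lower in HL60, beside 0.504% lower over all genes. With the block it passed in 5 of 27, all lower in HL60, beside 456 of 17272 genes lower and 1006 higher. S100A8 was at 7.51, 2.17 and 3.40 CPM in MOLM13 combination libraries, against 10.3, 13.5 and 9.58 CPM in MOLM13 cytarabine libraries (difference 2.73 ± 0.64, adjusted p = 0.0478). The monocyte and macrophage surface list had a median of 0.56 over 18 members in HL60 and -0.17 over 27 members in MOLM13. In MOLM13 4 of 27 rose and 0 fell, beside the same 5.07% and 8.79% over all genes. The difference passed for 0 of 27 in edgeR without the block, beside 2.45% of all genes. With the block it passed for 1, beside 1462 of 17272 genes. H2BC12 had -0.15 in HL60 and 1.93 in MOLM13 (difference -2.07 ± 0.37, adjusted p = 0.0308), and ZEB1 0.12 in HL60 and 2.18 in MOLM13 (-2.05 ± 0.41, adjusted p = 0.035), although ZEB1 was under 1 CPM in every MOLM13 library. WDR35, a gene of intraflagellar transport, fell in HL60, with 21.6, 14.3 and 26.2 CPM in the combination, against 32.0, 34.98 and 39.0 CPM with cytarabine (-0.79 ± 0.13, adjusted p = 0.0211), and rose in MOLM13, with 28.9, 40.6 and 41.0 CPM in the combination, against 22.2, 23.2 and 21.4 CPM with cytarabine (0.71 ± 0.19, adjusted p = 0.027).

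**Figure D5:**
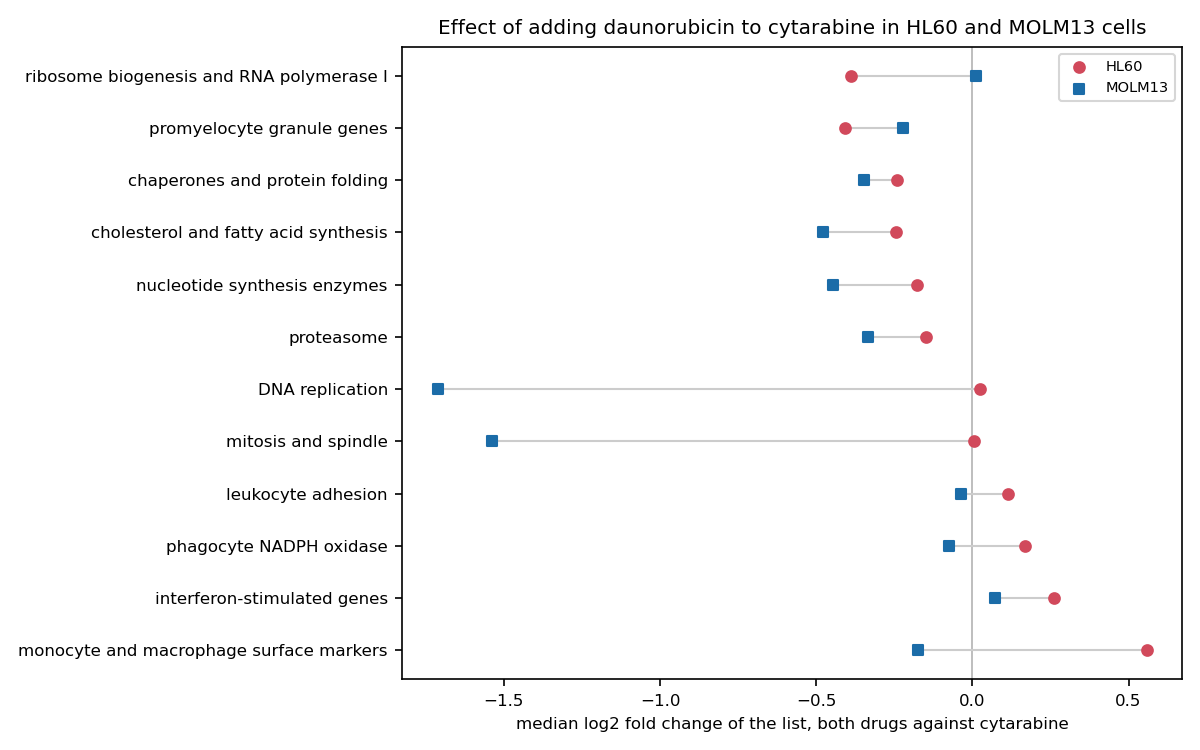
Median log2 fold change of the combination against cytarabine over the members of 12 gene lists, as circles for HL60 and squares for MOLM13. DNA replication and mitosis lay at 0.02 and 0.00 in HL60 and at -1.71 and -1.54 in MOLM13, while ribosome biogenesis lay at -0.39 in HL60 and 0.01 in MOLM13.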

How the data were processed

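RNA of HL60 and MOLM13 cells was sequenced in unstranded paired-end libraries. Per the labels and the study's methods, the authors ran FastQC 0.11.9 and Salmon 1.8.0 on an Ensembl GRCh38 transcriptome, whose release is not given in the sources used here, and used edgeR 3.38.1. The deposited values are estimated counts per transcript, which are not normalized. The deposited TPM served here only, with the effective lengths, to build the transcript length offset.

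By identifier, 235378 of 252199 transcripts found a gene in GENCODE release 44, giving 59041 genes. Gene sums of the estimated counts were rounded for 18 libraries, and the other 18 were not used. No pair of libraries of a group agreed within sampling noise. After filterByExpr (minimum count 10, total 15) and TMM, glmQLFit and glmQLFTest of edgeR 4.0.16 in R 4.3.3 were applied, with Benjamini-Hochberg adjustment over all genes tested. A call needed an adjusted p under 0.05 and a log2 fold change beyond 1, and tests of a difference used the adjusted p alone. Each standard error is the size of the log2 fold change over the root of F. In the blocked fit the replicate number was a term. The pairing comes from the data, not the labels, since every same-numbered correlation between HL60 groups was over 0.1. The fits were tested on simulated counts. Alternatives were DESeq2 1.42.0, the exact test of edgeR, RLE scaling, other count filters, the length offset, newer quasi-likelihood settings, protein-coding genes, all 12 HL60 libraries and leaving out libraries.

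The naming rule took up to 15 called protein-coding genes per direction at 5 CPM or more in the higher group whose groups did not overlap, up to 10 per direction for each difference, and list members. As the fit without the block called 0 genes, the rule was applied to the blocked fit with the same direction in all 3 pairs in place of groups that did not overlap, after its values were seen. From the genes named by the difference rules a part is described. Other single genes, the motifs and the blocked fit's alternatives were also chosen after values were seen. The members and the 37 gene lists were chosen with earlier results of these data known. Some items are not reported here.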

Additional observations from a re-analysis of the deposited data

Results flagged for a closer look

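In HL60 the effect of daunorubicin with cytarabine differed from its effect without cytarabine, by the test of the difference itself, in 802 genes. In the genes described, the difference (with minus without cytarabine, log2) was -4.57 for HR, -3.54 for CXCR3, -3.15 for GPSM1, -3.28 for PTPRF, -3.57 for ADAMTS14, -2.996 for IL2RB, -3.07 for WNT5B, -2.17 for TERT and -1.86 for RAC3. It was 1.62 for CENPE, 1.27 for CENPF, 1.64 for PSRC1, 1.09 for CDC20, 1.44 for H1-10, 2.41 for H1-2, 2.04 for H2BC12 and 2.66 for ID1. Over 20 settings ID1 passed in 10, H1-2 in 12 and IL2RB in 18.

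Between the lines, the effect of adding daunorubicin to cytarabine differed in 423 genes. The difference (HL60 minus MOLM13, log2) was -2.07 for H2BC12, -2.05 for ZEB1, -1.53 for CYFIP2, -1.51 for LAMP5, -1.32 for MYC and -1.45 for WDR35. It was 4.18 for NXPH4, 4.67 for SYNE2, 3.90 for BIN1, 3.81 for CLGN, 2.56 for HELLS and 2.73 for S100A8. NXPH4, SYNE2, BIN1 and CLGN averaged 0.0334, 0.0250, 0.0633 and 0.0123 CPM in MOLM13 combination libraries, with 1 or 2 of the 3 libraries at 0, so the sizes of their differences depend on the prior count and ranged from 3.28 to 7.53 for SYNE2 and from 3.37 to 8.16 for BIN1 over the settings. They passed in 9 to 11 of 20 settings.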

How the results depend on the processing

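For the combination against cytarabine in HL60, 0 genes were called without the replicate block and 57 with the block. Gene list members were counted at the adjusted p alone, with no fold threshold. Of 661 members tested 0 passed without the block and 62 with it, beside 3.58% of all genes with it. Without the block, DESeq2 called 14 genes and 7 list members passed, no count filter gave 82 and 24, the edgeR exact test 8 and 2, and leaving out 1 library 0 to 2 genes and 0 list members. With the pairing kept, no filter gave 210 genes, the transcript length offset 5, the adjusted p alone 542, and leaving out a pair 62 to 101. The number of genes whose daunorubicin effect differed with cytarabine (802) was 2811 with the replicate block, 1430 with DESeq2, 1417 with no filter, 444 with the length offset, 481 with a difference beyond 1, and 343 to 1019 without a single library. The number that differed between HL60 and MOLM13 (423) was 1462 with the replicate block, although same-numbered MOLM13 libraries correlated by only 0.0771 to 0.0999, 1472 with DESeq2, 1009 with no filter, 172 with the length offset, 665 in protein-coding genes, 281 with a difference beyond 1, and 4 to 1951 without a single library. The cause of these changes was not tested. Where a library was left out, the spread was pooled over the remaining ones.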
